A study of Homo sapiens with 3 samples.

Results

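Replication-dependent histone mRNAs were taken as all clusters whose sense annotation names a gene starting HIST1H, HIST2H, HIST3H or HIST4H, the symbols of the hg19 annotation. They made up 85 of 11577 clusters in replicate 1, 57 of 18065 in replicate 2, 22 of 5099 in replicate 3 and 65 of 8469 in a series-wide list. The clusters named 32 genes over the 3 replicates: 2 linker (H1), 9 H2A, 9 H2B, 5 H3 and 7 H4 genes. The assay was PAR-CLIP of FLAG-tagged DICER with RNase T1 in Flp-In HEK293 T-REx cells, a human embryonic kidney line with a tagged transgene, with 3 replicates of 1 group and no control. In PAR-CLIP, cells take up 4-thiouridine, crosslinked uridines are read as T-to-C conversions, and a cluster is a group of overlapping reads that carries them. The number of conversions in a cluster is the level used below, and distinct reads are the different read sequences behind it. Separate cultures are not mentioned in the labels, so the replicate spread and every p-value below may reflect technical variation alone. Without a control or an RNA measurement, the abundance of each mRNA and its contact with DICER cannot be told apart.

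Replication-dependent histone genes are short, mostly without introns, and sit in clusters in the genome. Their mRNAs are made in S phase and, unlike nearly all other mRNAs, end in a conserved stem-loop rather than a poly(A) tail. The stem-loop-binding protein SLBP holds that stem-loop, and the U7 snRNP directs the cut just after it. DICER, an enzyme of the RNase III family, cuts hairpin precursors and double-stranded RNA into small RNAs. The core histones H2A, H2B, H3 and H4 form the nucleosome, and the linker histone H1 binds the DNA between nucleosomes.

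Many of these genes are near copies of each other, so whether a read can be placed on 1 of them depends on few bases. The H4 genes, nearly all of which encode the same protein, show this at the start of the coding sequence. The following lines give the coding bases, 5′ to 3′ from the ATG, that lie within 50 bases of the RefSeq transcript start (GRCh38.p14) for the 4 of 7 listed H4 genes for which the table gave at least 12 such bases. Capitals mark bases that differ from HIST1H4B.
HIST1H4B: atgtctggtcgcggcaaag
HIST1H4E: atgtctggtcgcggc
HIST1H4D: atgtctggCcgcgg
HIST1H4H: atgtctggCcgTggT
Counting from 1 at the A of the ATG, HIST1H4E matched HIST1H4B at all 15 bases compared. HIST1H4D differed at 1 of 14 bases, T9C, and HIST1H4H at 3 of 15, T9C, C12T and C15T. Each cluster in the 4 lists carries a mapping tag that begins with "UNIQ", per the file attributes. How reads that match several copies equally well were handled is not stated in the labels or files, and its part in the gene levels below was not tested.

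Histone clusters held 3937, 799 and 629 conversions in the replicates, numbered 1 to 3 as labelled, out of 1306125, 1060791 and 595487 in the whole lists. As a share of all conversions this was 0.301%, 0.0753% and 0.106%, a mean of 0.161% ± 0.123 (SD, n = 3). Replicate 1 stood above the other replicates, and without it the mean was 0.0905%. Of the conversions in mRNA exon clusters alone, histone mRNAs held 2.63%, 1.00% and 1.27% (1.63% ± 0.871, SD, n = 3). An mRNA exon cluster is one annotated to an exon of a coding transcript and to a coding or untranslated region, with no small-RNA class. Of the histone clusters, 85, 55 and 20 in replicates 1, 2 and 3 met that definition.

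The support behind the clusters fell into different ranges by replicate. Of histone clusters, 18 of 85 (21.2%) in replicate 1, 23 of 57 (40.4%) in replicate 2 and 19 of 22 (86.4%) in replicate 3 rested on exactly 2 distinct reads. Among the other mRNA exon clusters that share was 53.8%, 72.0% and 90.3%. The median histone cluster held 23, 9 and 24 conversions, against 13, 6 and 19 in the other mRNA exon clusters. In each replicate, histone clusters thus held more conversions at the median than other mRNA exon clusters of the same list. A smaller share of them sat at 2 distinct reads in replicates 1 and 2, while in replicate 3 the shares were close. Histone clusters were also longer, with median lengths of 40, 32 and 29 nt against 33, 29 and 27 nt. Reads per distinct read were 7.83, 3.19 and 12 on histone clusters and 6.69, 3.23 and 10.2 on the others, so that many of the conversions in replicate 3 were repeats of a few read sequences. Levels in replicate 3 therefore carry little independent sampling. Each replicate covers 2 sequencing runs. Reads from both runs lay behind 70.6%, 91.2% and 100% of histone clusters and 48.2%, 91.6% and 100% of the others. The lists thus differ in run support, which limits comparing counts and absences between replicates.

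**Figure D1:**
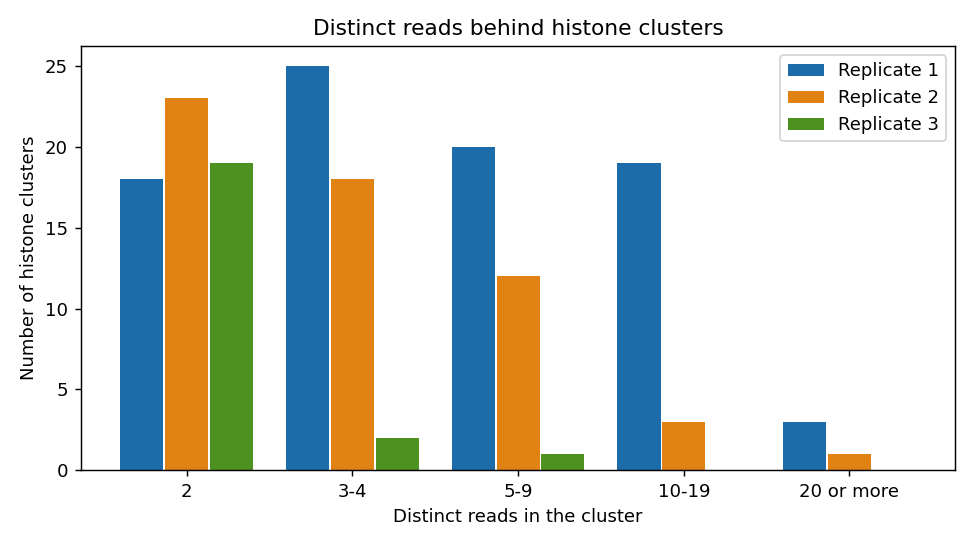
Number of histone clusters (vertical axis) by the number of distinct reads in the cluster (horizontal axis, binned), with 1 bar per replicate. In replicate 3, 19 of 22 clusters have exactly 2 distinct reads and none has more than 8, while clusters in replicate 1 reach 34.

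By family, H2A genes held 41.0%, 32.4% and 43.9% of the histone conversions in replicates 1, 2 and 3, and H4 genes held 25.2%, 25.7% and 29.7%. H2B genes held 12.9%, 15.1% and 19.6%. H3 genes held 10%, 20.3% and 4.93%. The linker histones held 13.1%, 7.64% and 1.91%. H2A had the highest share of conversions and H4 the next in each of the 3 replicates, while the order of H1, H2B and H3 differed between replicates. By distinct reads the order of the leading families turned in replicates 1 and 2, with 28.7% and 27.9% for H2A and 31.0% and 30.9% for H4, and stayed in replicate 3, with 37.0% and 25.9%. Without HIST2H2AB, H2A held 23.2%, 19.6% and 35.7% of the remaining histone conversions and H4 32.8%, 30.5% and 34.1%. Clusters that lie in HIST1H2AD and HIST1H3D at once are counted for both families. Per 100 nt of cluster, H2A also led, with 160, 55.7 and 145 conversions, and H4 had 82.3, 30.9 and 89.1. Without HIST2H2AB, the H2A value was 75.6, 31.4 and 125, below that of H4 in replicate 1 and close to it in replicate 2, so the lead of H2A there rested on that gene.

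The H2A gene HIST2H2AB held the deepest site of the set. Its cluster, in the coding sequence on the minus strand at chr1:149859188-149859238 (hg19), had 893, 127 and 80 conversions in the 3 replicates and 1002 in the series-wide list. It held 29, 23 and 8 distinct reads in the replicates, more than any other histone cluster in replicates 2 and 3. All of its conversions fell on 1 position, and the peak was at 149859210 in all 4 lists. Nearly every read carried the conversion, at 99.1%, 100% and 100% of reads. Conversions were 87.47%, 95.69% and 96.77% of reads over all histone clusters, and 88.55%, 94.86% and 98.66% over other mRNA exon clusters. A high converted share was thus not particular to this site. This site alone held 22.7%, 15.9% and 12.7% of the histone conversions. Among mRNA exon clusters its ranks by conversions were 4, 38 and 35 in the 3 replicates. Of the 35, 50 and 30 mRNA exon clusters with at least as many distinct reads as this site, 1, 4 and 11 had a lone conversion position, this site included. In replicate 1 no other mRNA exon cluster of that depth had its conversions at a lone position. Whether a sequence difference of the cell line at this base adds to the conversions was not tested.

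The other H2A genes with clusters in all 3 replicates were HIST1H2AG, HIST1H2AH, HIST2H2AC and HIST3H2A. HIST1H2AH had 192, 30 and 39 conversions, and HIST1H2AG had 139, 25 and 68. HIST3H2A had 93, 24 and 47, and HIST2H2AC had 78, 19 and 11. HIST1H2AH showed a coding cluster at chr6:27114945-27114996 that all 3 replicates overlapped, with peaks at 27114967 in replicates 1 and 3 and 27114964 in replicate 2. Its 3′ untranslated cluster ended at 27115343 in replicates 1 and 2, with 130 and 6 conversions, and was not listed in replicate 3. HIST2H2AC was listed in all 3 replicates at its 3′ untranslated region, from chr1:149858935, with 70, 19 and 11 conversions. HIST1H2AG had clusters in each replicate but no place common to all 3.

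Among the H4 genes, HIST1H4B had 421, 22 and 87 conversions in replicates 1, 2 and 3, HIST1H4C had 249, 89 and 35, HIST1H4H had 123, 62 and 21, and HIST1H4E had 82, 14 and 44. The 3 other H4 genes, HIST1H4A, HIST1H4D and HIST4H4, were listed in replicates 1 and 2 and not in replicate 3. HIST1H4B was covered along much of its length. In replicate 1 it had 5 clusters, the deepest of which ran over the stop codon at chr6:26027126-26027258 on the minus strand, with 219 conversions at 16 positions and 34 distinct reads. At the same end of the mRNA replicate 2 had 8 conversions in 8 distinct reads. Within the bounds of that cluster replicate 3 had clusters of 38 and 8 conversions, each in 2 distinct reads. HIST1H4C, on the plus strand, had its deepest cluster in the coding sequence at chr6:26104304-26104409 in replicate 1, with 163 conversions. Replicate 2 had 48 conversions from the same start with the same peak, at 26104331, and replicate 3 had no cluster there.

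**Figure D2:**
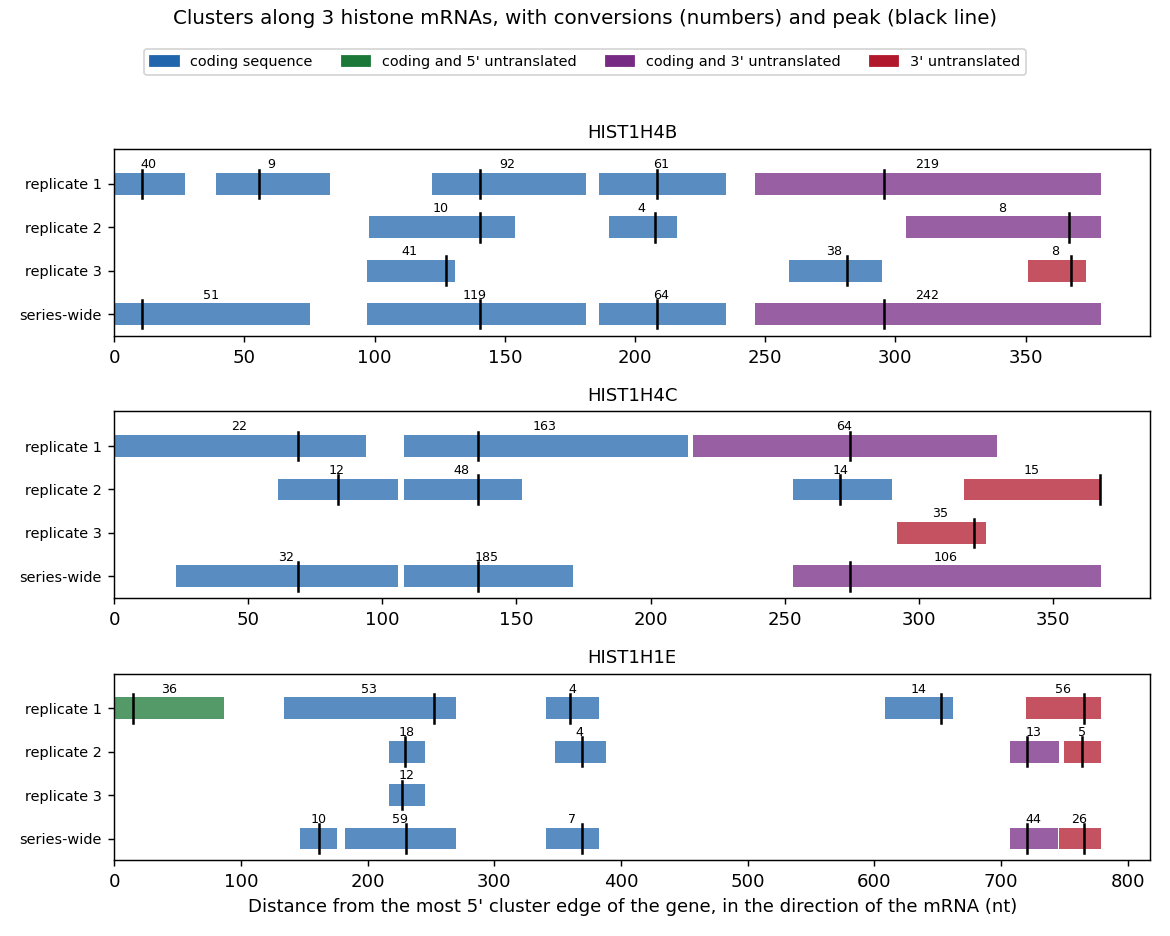
Clusters along HIST1H4B, HIST1H4C and HIST1H1E in the 3 replicates and the series-wide list, drawn against distance in nt from the most 5′ cluster edge of each gene in the direction of the mRNA. Bar colour gives the annotated region, the number above a bar its conversions and the black line its peak; replicate 1 has 5, 3 and 5 clusters on these genes, and replicate 3 has 3, 1 and 1.

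H2B conversions lay more often in the 3′ untranslated region alone than in any other region in each replicate. It held 65.8%, 78.0% and 45.8% of the H2B conversions in mRNA exon clusters, against 19.5%, 25.9% and 15.2% for H2A. The coding sequence alone held 69.9%, 70.7% and 84.8% of the H2A conversions. In replicates 1 and 2 both H2A values rested on HIST2H2AB. Without it, the 3′ untranslated region alone held 44.8%, 50.8% and 21.4% of the H2A conversions and the coding sequence alone 31.0%, 42.4% and 78.6%, so in replicates 1 and 2 the 3′ untranslated share was the larger. HIST2H2BE had 110, 26 and 22 conversions. Its 3′ untranslated cluster on the minus strand ended at the same base, chr1:149857735, in all 3 replicates, with 103, 26 and 22 conversions and 18, 14 and 2 distinct reads. HIST1H2BK had 62, 21 and 69 conversions, and HIST1H2BJ had 87 and 41 with no cluster in replicate 3. HIST1H2BD had 145 and 6 conversions in replicates 1 and 2 and none listed in replicate 3. In HIST1H2BD, 66 of the 145 lay in a 5′ untranslated cluster at chr6:26158370-26158397, the only histone cluster of the 3 replicates annotated to that region alone within an exon. HIST3H2BB had 12, 18 and 25 conversions at places not shared by all 3 replicates.

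Of the H3 genes, HIST1H3D alone was listed in all 3 replicates, with 112, 75 and 31 conversions. In replicate 1 most of the 112 lay in clusters of 70, 10 and 6 conversions that are shared with HIST1H2AD. Replicate 2 had a shared cluster of 9. An intron cluster held 7 and 4 of the HIST1H3D conversions in replicates 2 and 3. HIST1H3H had 156 and 32 and HIST1H3B 106 and 40 in replicates 1 and 2, and neither was listed in replicate 3. HIST1H3A had 20 and 5 conversions there and no cluster in replicate 3 or the series-wide list. In HIST1H3H the deepest cluster of replicate 1 lay at chr6:27778222-27778257 on the plus strand, with 102 conversions. Replicate 2 had 25 conversions from the same start and at the same peak, 27778241.

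Only 2 linker histone genes were listed, HIST1H1C and HIST1H1E. HIST1H1C had 353 and 21 conversions in replicates 1 and 2 and no cluster in replicate 3. HIST1H1E had 163, 40 and 12. The other linker histone genes in RefSeq, HIST1H1A, HIST1H1B, HIST1H1D and HIST1H1T, the last of which is known as a testis gene, had no cluster in any list. In HIST1H1C the coding clusters at chr6:26056537-26056598 (131 conversions) and chr6:26056323-26056395 (110 conversions) were the deepest of replicate 1. The 3′ untranslated cluster of HIST1H1C covered the same bases, chr6:26055969-26056007, in replicates 1 and 2, with 42 and 12 conversions. In HIST1H1E the coding cluster at chr6:26156780-26156807 had identical edges in replicates 2 and 3, with 18 and 12 conversions.

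Linker and core genes were compared by the mean conversions per gene with a cluster. Linker genes had 258 and core genes 135 in replicate 1 (2 and 26 genes), 30.5 and 27.7 in replicate 2 (2 and 27 genes), and 12 and 41.1 in replicate 3 (1 and 15 genes). The log2 difference, linker minus core, was 0.94, 0.14 and -1.78, a mean of -0.23 ± 1.4 (SD, n = 3), with an exact two-sided sign-flip permutation p of 1.0 over the 3 replicates. The direction was not the same in the 3 replicates. Per covered nt, linker genes were lower in all 3, by log2 differences of -0.54, -0.69 and -1.24 (mean -0.82 ± 0.37, SD, n = 3), with an exact permutation p of 0.25 and 0.3 after Benjamini-Hochberg adjustment over 6 such tests. A p of 0.25 is the smallest that 3 replicates can give. Without HIST2H2AB the per-nt difference was 0.09, -0.33 and -1.09, so its direction in replicate 1 rested on that gene.

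**Figure D3:**
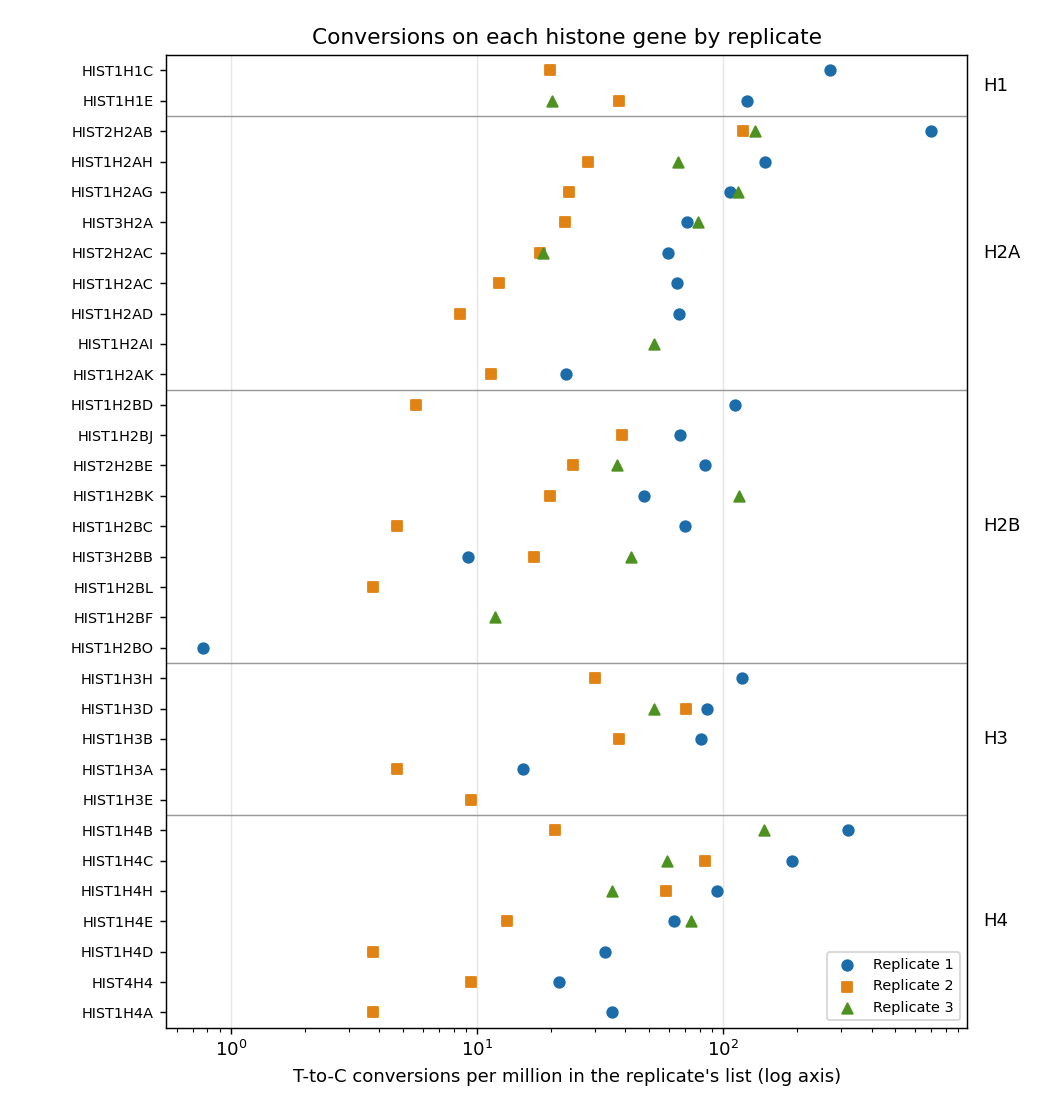
Conversions on each of the 32 histone genes (rows, grouped by family) per 1000000 conversions in the replicate's whole list, on a log axis, with 1 symbol per replicate and no symbol where the gene had no cluster. HIST2H2AB lies farthest right in replicate 1, and 18 genes lack a cluster in at least 1 replicate.

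Between replicates, 14 of the 32 histone genes (43.8%) had a cluster in all 3, against 15.1% of all mRNA genes with a cluster in any replicate. They were HIST1H1E, 5 H2A genes, 3 H2B genes, HIST1H3D and 4 H4 genes. A further 13 genes were listed in 2 replicates and 5 in 1. A place that overlapped in all 3 replicates was found in 11 of the 32 genes (34.4%), against 7.15% of all mRNA genes, and HIST1H2AG, HIST1H4E and HIST3H2BB were the genes without one. Of the 65 histone clusters of the series-wide list, 12 (18.5%) were overlapped in all 3 replicates, against 9.98% of series-wide mRNA exon clusters. These backgrounds were not matched for depth, and histone clusters were deeper than most. When clusters needed at least 3 distinct reads, 2 histone genes remained in all 3 replicates. No share over all mRNA genes is given for that setting. In replicate 3, 86.4% of histone clusters and 90.3% of other mRNA exon clusters rested on exactly 2 distinct reads. Across genes listed in both, log2 conversions in replicates 1 and 2 had a Pearson r of 0.590 and a Spearman rho of 0.659 over 27 genes. The r was 0.394 for replicates 1 and 3 and 0.0481 for replicates 2 and 3, over 14 genes each. These describe genes that are not independent and share gene length and uridine content.

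RefSeq lists 71 coding genes with such a HIST name, so 39 had no cluster in the replicates: 4 H1, 8 H2A, 9 H2B, 10 H3 and 8 H4 genes. By replicate, 28, 29 and 16 of the 71 were listed. Over all 20056 RefSeq protein-coding genes, 19.5%, 24.3% and 8.95% had an mRNA exon cluster in replicates 1, 2 and 3. Absence from a list sets no limit on a level, since the lists hold clusters above the authors' threshold. The genes without a cluster include near copies such as HIST2H2AA3 and HIST2H2AA4. The part that reads matching several copies equally well had in these absences was not tested.

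Within the mRNA, histone clusters lay more often in the coding sequence than other mRNA exon clusters did. Clusters in the coding sequence alone made up 63.5%, 50.9% and 45.0% of the histone clusters in replicates 1, 2 and 3, against 27.7%, 27% and 27% of the others. The difference was 25.9 ± 9.11 percentage points (SD, n = 3) and positive in 3 of 3 replicates, with an exact sign-flip permutation p of 0.25 (adjusted p = 0.3). The 3′ untranslated region alone held 15.3%, 29.1% and 45.0% of histone clusters, against 52.6%, 52.0% and 49.7% of the others. That difference was -37.3, -22.9 and -4.73 percentage points, with a mean of -21.6 ± 16.3 (SD, n = 3), the same exact permutation p of 0.25 and an adjusted p of 0.3. In replicate 3 the 3′ untranslated share of the histone clusters came close to that of other mRNAs. The 5′ untranslated region alone held 0.392% ± 0.679 of histone clusters and 9.05% ± 1.72 of the others (SD, n = 3). The region labels do not give region lengths. Histone mRNAs have short untranslated regions, and how far region length sets these shares was not tested.

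Clusters over the stop codon made up 10.6%, 14.5% and 10% of histone clusters (9 of 85, 8 of 55 and 2 of 20) and 1.64%, 1.04% and 0.446% of the others. The difference was 10.7 ± 2.48 percentage points (SD, n = 3), with an exact permutation p of 0.25 (adjusted p = 0.3). In replicate 1, 7 of the 9 belonged to H4 genes, 1 in each of the 7 listed: HIST1H4B (219 conversions), HIST1H4C (64), HIST1H4E (60), HIST1H4H (59), HIST1H4D (27), HIST1H4A (20) and HIST4H4 (8). The rest were HIST1H2AC (72) and HIST1H3B (15). In replicate 2, 3 of the 8 belonged to H4 (HIST1H4B, HIST1H4E and HIST1H4H), 3 to H3 (HIST1H3A, HIST1H3D and HIST1H3H), 1 to HIST1H1E and 1 to HIST3H2BB. In replicate 3 they were in HIST1H4C and HIST1H2BK. With 3 or more distinct reads the difference was 9.96, 19.4 and 0 percentage points in replicates 1, 2 and 3, and was thus not positive in replicate 3. The excess was not particular to the stop codon. The start codon label was on 9.4%, 7.3% and 5% of histone clusters, against 1.5%, 1.2% and 1.6% of the others. For the transcript start label these were 8.2%, 7.3% and 5%, against 2.8%, 2.9% and 2.9%. For the poly(A) site label they were 3.5%, 5.5% and 15.0%, against 1.7%, 1.5% and 1.4%. That label was on 3 histone clusters in each replicate, and its relation to the ends of histone mRNAs was not tested. How far the length of the mRNAs and of the clusters sets these shares was not tested.

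The 3′ ends were further examined through the predicted conserved RNA structures in the authors' annotation, because stem-loop positions were not used here. Of histone clusters that touched a 3′ untranslated region, 7 of 23 (30.4%), 6 of 25 (24.0%) and 3 of 10 (30.0%) lay on a predicted structure of the same strand in replicates 1, 2 and 3. Among the other mRNAs this was 1.01%, 1.18% and 1.21%. The difference was 27 ± 3.64 percentage points (SD, n = 3), positive in 3 of 3 replicates, with an exact permutation p of 0.25 (adjusted p = 0.3). Histone clusters with such a mark included HIST2H2BE in all 3 replicates, HIST1H2AH, HIST1H2AG and HIST1H1E in replicates 1 and 2, and HIST1H2BD and HIST1H3H in replicate 1. When a prediction on the opposite strand counted as well, since a hairpin can be predicted from either strand, the shares were 16 of 23 (69.6%), 16 of 25 (64.0%) and 6 of 10 (60.0%), against 1.60%, 1.70% and 1.39%. The same-strand mark was not particular to the 3′ untranslated region. Over all histone exon clusters it was on 13 of 85 (15.3%), 9 of 55 (16.4%) and 3 of 20 (15.0%), against 1.36%, 1.38% and 1.24% of the others. In replicates 1 and 2 these included coding clusters, such as those of HIST1H3D and HIST1H3H. The annotation does not say that these structures are the histone stem-loop, and that was not tested. How much of the 3′ untranslated sequence carries a prediction was not computed for either set. Its part in the difference was not tested.

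**Figure D4:**
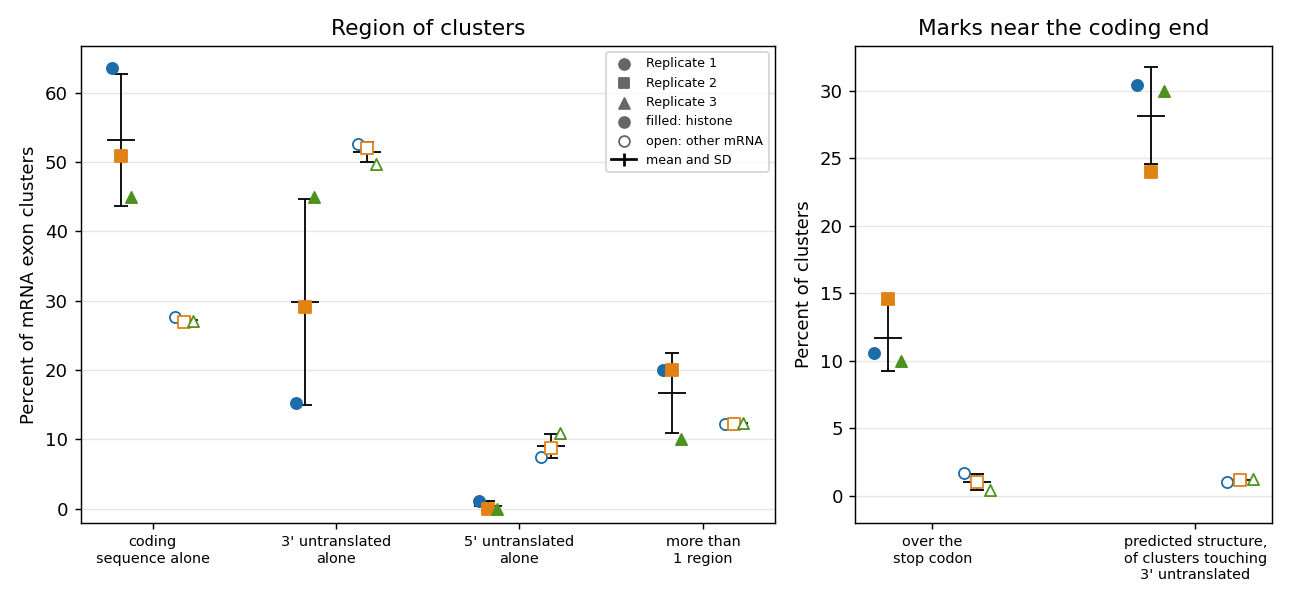
Left, percent of mRNA exon clusters (vertical axis) in each region; right, percent of clusters over the stop codon, and percent of clusters touching a 3′ untranslated region that lie on a same-strand predicted structure. Filled symbols are histone clusters, open symbols the other mRNA exon clusters, 1 symbol per replicate with mean and SD; histone clusters are above the others in the coding sequence, over the stop codon and on predicted structures in all 3 replicates.

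Cluster edges were compared for series-wide histone clusters that replicates 1 and 2 both overlapped. The 3′ edge was the same base in both replicates for 10 of 19 clusters (52.6%) that touched a 3′ untranslated region, and for 1 of 21 (4.76%) in the coding sequence alone. In the other mRNAs these shares were 26.3% and 25.2%. The 10 were clusters of HIST1H1C, HIST1H1E, HIST1H2AG, HIST1H2AH, HIST1H2BC, HIST1H2BJ, HIST1H2BK, HIST1H4B and HIST2H2BE and the cluster shared by HIST1H2AD and HIST1H3D. The 5′ edge was shared in 4 of the 19 (21.05%) and 2 of the 21 (9.52%), against 25.0% and 23.0% in the other mRNAs. Peaks fell on the same base in 18 of the 42 histone clusters overlapped by both replicates (42.9%) and within 3 nt in 27 (64.3%), against 48.2% and 65.4% in other mRNA exon clusters. Of the 10 clusters with a shared 3′ edge, replicate 3 overlapped 3, and the edge was at the same base in 1, HIST2H2BE. The distance from these edges to the end of the mRNA was not computed.

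In the series-wide list, 8 clusters in 7 genes carried an intron label from annotated transcripts that are spliced, and 7 of the 8 carried an exon label as well. Among mRNA exon clusters of that list the label was on 10.9% of histone clusters and 18.8% of the others. HIST1H2BK had a cluster of 19 conversions at chr6:27106320-27106349, far downstream of its coding sequence in a 3′ untranslated region of a longer transcript. HIST1H3D had an intron cluster of 9 conversions at chr6:26198778-26198810 within a repeat.

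Histones listed as replication-independent, most of which have mRNAs with poly(A) tails, served as a comparison list of 13 genes. Of these, 9, 6 and 3 had an exon cluster in replicates 1, 2 and 3, and 3 genes had one in all 3 replicates. Of the 20056 protein-coding genes in RefSeq, matched by symbol or older symbol, 19.5%, 24.3% and 8.95% had an exon cluster in the replicates and 4.94% in all 3. H3F3B, which encodes H3.3, had 835, 163 and 124 conversions in exon clusters, H2AFX, which encodes the DNA damage histone H2A.X, had 193, 25 and 16, and the linker gene H1FX had 113, 27 and none listed. In this list 21 of 27, 8 of 14 and 3 of 4 exon clusters lay in the 3′ untranslated region alone. That was above the share in replication-dependent histone mRNAs in each replicate, in a list with few clusters in replicate 3.

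The list of 27 symbols of histone mRNA synthesis, 3′ processing, translation and decay, which includes MIF4GD also under its other name SLIP1, had exon clusters for 13, 16 and 8 symbols in replicates 1, 2 and 3, against the same background of 19.5%, 24.3% and 8.95%. Of these, 3 (CASP8AP2, CPSF3 and CSTF2T) had them in all 3 replicates. SLBP had 139 and 30 conversions in replicates 1 and 2 and no cluster in replicate 3. CASP8AP2, a factor of histone gene expression, had 67, 42 and 38, and CSTF2T, a cleavage stimulation factor subunit, had 53, 45 and 40. The U7 snRNA gene RNU7-1, whose RNA pairs with histone pre-mRNA after the stem-loop, is in the list, but its cluster is not an mRNA exon cluster and so is not counted. Its cluster on the plus strand at chr12:7053006-7053050 had 160, 67 and 52 conversions, 20, 26 and 4 distinct reads, and a peak at 7053026 in all 4 lists. Of 6 genes listed as markers of HEK293 cells, 3, 4 and 3 had an exon cluster in the replicates, and of 6 markers of other cell types none did.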

How the data were processed

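Per the file headers, the authors called clusters with a program named parclip, without a version in the labels or files, and deposited 4 lists: 1 for each replicate and 1 series-wide. An estimated false discovery rate of 5% is attached to every cluster in the attributes. Bowtie2 2.1.0 and the hg19 build are named in the submitters' processing notes. Levels are the authors' count of T-to-C conversions as deposited, with no scaling for depth. The authors' deposited entropy score was not used. Shares use the total of each list, which is not the sequencing depth. Every list of a replicate covers 2 sequencing runs, as the labels show.

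Region, gene and structure labels came from the deposited attributes. Overlap required 1 nt or more on 1 strand, a step checked on simulated data. Symbols were matched to current ones in RefSeq for 32 of 32 genes. The replicate was the unit of the exact sign-flip permutation tests (two-sided), 6 in all, adjusted by Benjamini-Hochberg; 3 of them (stop codon, predicted structure, linker against core per covered nt) were added after values had been seen. Genes were named by rule: up to 4 per family with the most series-wide conversions, each gene listed in all 3 replicates, and each linker gene; others are examples chosen after their values were seen. The members and gene lists were chosen with earlier results of these data known. Python 3.11.15, numpy 2.4.6, pandas 2.3.3 and matplotlib 3.10.9 were used. Alternatives are given in the closing section.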

Additional observations from a re-analysis of the deposited data

Results flagged for a closer look

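A cluster was found on the strand opposite to a histone gene, in data that the comparisons above do not use. It lay opposite HIST1H3B on the plus strand at chr6:26032231-26032258 in replicate 3, with 17 conversions in 2 distinct reads. Replicates 1 and 2 and the series-wide list had 0 such clusters. There are no control samples to set it against, and its source was not tested.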

How the results depend on the processing

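The mean histone share of conversions, 0.161%, became 0.315% of distinct reads and 0.494% of clusters, and ranged from 0.0905% to 0.2035% when a replicate was left out. The differences in coding share (leave-one-out 21.0 to 29.9 percentage points) and 3′ untranslated share (-30.1 to -13.8) kept their direction with 3 or more distinct reads, shares of conversions, any touch of a region, and without HIST2H2AB. With 3 or more distinct reads, the only histone exon clusters left in replicate 3 were coding clusters of HIST2H2AB and HIST1H2AG. The value of replicate 3 at that setting rested on them, and the mean coding difference was 44.9 ± 31.5 (SD, n = 3). The stop codon difference ranged from 9.25 to 11.5 and the predicted structure difference from 25.8 to 29.1 when a replicate was left out. With 3 or more distinct reads the stop codon difference was 9.78 ± 9.69 (SD, n = 3), with an exact permutation p of 0.5, and the predicted structure difference had no value in replicate 3. The linker minus core log2 difference of -0.23 turned to 0.23 with distinct reads in place of conversions, and ranged from -0.82 to 0.54 when a replicate was left out, the last without replicate 3; the cause was not tested. Per covered nt it ranged from -0.96 to -0.62, and was -0.44 without HIST2H2AB. The count of 14 histone genes listed in all 3 replicates fell to 2 with 3 or more distinct reads, and ranged from 14 to 27 when a replicate was left out, 27 without replicate 3. The count of 12 series-wide clusters overlapped in all 3 replicates became 5 when the overlap had to cover 50% of the length. The counts of 2 and 5 have no share over all mRNA genes or clusters beside them. Few distinct reads stood behind most clusters of replicate 3 (exactly 2 in 86.4%). No paired analysis was possible because there is only 1 group.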
